A study of Mus musculus with 20 samples.

Results

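DNA methylation at imprinted genes and their control regions was examined in hematopoietic stem cells (HSCs) of mice that had received 0, 2, 4 or 10 cycles of 5-fluorouracil (5FU, a chemotherapy drug that blocks thymidylate synthesis). The set comprised 32 imprinted genes, and every 100 bp bin whose position lay at most 2 kb from any of their transcription start sites (TSS) in RefSeq was taken, which gave 465 of the 1201951 bins in the data. By role, 18 genes have a germline control region at a TSS, 6 belong to clusters whose paternally methylated control region lies elsewhere, and 8 belong to clusters whose maternally methylated control region lies elsewhere.

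Reduced representation bisulfite sequencing (RRBS), which reads CpG-rich fragments cut by a restriction enzyme, gave 20 samples: 4 of 0x, 6 of 2x, 4 of 4x and 6 of 10x. The labels give C57BL/6 mice. Per the study's methods they were females of the C57BL/6J substrain, young adults at the start, 5FU was injected into the abdomen at intervals of a few weeks, and marrow was taken about a month after the last cycle. HSCs were sorted as Lin-cKit+Sca1+CD34-Flk2-CD150+ cells, whereas the sample labels name the tissue as blood and the cell type as HSC. The 0x group received no active cycle, no group carries an engineered allele, and nothing in the labels ties samples to separate mice, so p-values measure the spread between samples, which may be technical.

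Imprinted genes are expressed from 1 parental allele. A control region acquires methylation in either the oocyte or the sperm and, in most tissues, keeps it on that allele through later divisions, so a population of normal cells is expected to read as partly methylated there. KRAB zinc finger proteins such as ZFP57, which bind the methylated allele, and the maintenance methyltransferase DNMT1 are known to preserve these marks, and methylation at other imprinted promoters is often set later, in the wake of the control region.

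Values are percent methylation per bin without coverage. The study's methods state a minimum coverage for a measured bin, and the depth of any bin above it is unknown. Where a bin lacked data in a sample, the authors filled in a group value, which leaves the same number repeated in several samples of a group. Bins were therefore called unrepeated where every group varied and no value other than 0 or 100 recurred within a group, and 21.7% of the 465 bins met this, against 84131 of all bins (7.0%). The other 364 bins comprised 253 with a repeated value, 66 with 1 value in all 20 samples and 45 without repeats in which a group stood at 0 or 100 throughout, and are described apart. Unrepeated bins covered 27 of the 32 genes. Airn, Rtl1, Kcnq1, Ndn and Ube3a had none.

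The bins below are those, 1 per locus, whose mean lay from 35 to 65% in all 4 groups, and are shown because the question of a held intermediate level turns on them. Zrsr1 and another part of Gnas also had such bins, but they lie in exons outside the coding part and are not printed. Each is the plus strand of mouse GRCm38 (mm10) from 5′ to 3′, with every CpG in capitals.
Gnas: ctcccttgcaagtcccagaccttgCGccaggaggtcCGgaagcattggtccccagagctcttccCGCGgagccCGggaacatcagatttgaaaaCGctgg
Snrpn: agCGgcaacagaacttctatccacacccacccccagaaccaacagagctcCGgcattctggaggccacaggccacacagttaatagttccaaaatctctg
H19: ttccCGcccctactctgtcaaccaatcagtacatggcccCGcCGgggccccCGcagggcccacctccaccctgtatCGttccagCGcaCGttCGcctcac
Kcnq1ot1: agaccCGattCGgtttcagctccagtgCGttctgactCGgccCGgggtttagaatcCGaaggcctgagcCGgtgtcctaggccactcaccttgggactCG
Cdkn1c: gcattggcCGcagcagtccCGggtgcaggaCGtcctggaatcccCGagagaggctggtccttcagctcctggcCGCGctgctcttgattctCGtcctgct
Grb10: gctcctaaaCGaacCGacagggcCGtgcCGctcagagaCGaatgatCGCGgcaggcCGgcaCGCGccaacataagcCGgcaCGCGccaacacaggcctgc
Peg13: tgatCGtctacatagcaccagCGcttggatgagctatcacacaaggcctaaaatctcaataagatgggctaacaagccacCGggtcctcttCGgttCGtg
Igf2r: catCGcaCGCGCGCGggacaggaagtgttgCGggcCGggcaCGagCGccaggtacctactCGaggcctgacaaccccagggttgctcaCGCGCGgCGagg

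The Gnas bin (chr2:174298400-174298499) is coding exon sequence 541 bp downstream of a Gnas TSS. The Snrpn bin (chr7:60004600-60004699) is intronic, 500 bp downstream of the TSS, and holds the reverse complement of TGCCGC, the hexamer bound by ZFP57. The H19 bin (chr7:142578200-142578299) is intergenic, at -54 bp from the TSS, and holds 8 CpG. The Kcnq1ot1 bin (chr7:143295400-143295499) lies in the non-coding exon of this antisense RNA. The Cdkn1c bin (chr7:143459800-143459899) is coding exon. The Grb10 bin (chr11:12026200-12026299) is intronic, holds 13 CpG and has TGCCGC. The Peg13 bin (chr15:72809800-72809899) lies in the exon of the non-coding RNA. The Igf2r bin (chr17:12769800-12769899) lies at -94 bp from the Igf2r TSS, within an intron of the antisense RNA Airn, and holds 14 CpG.

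In untreated HSCs a larger share of bins at imprinted genes than elsewhere sat at intermediate levels. The median level in 0x of their unrepeated bins was 37.1% (quartiles 8.57 and 55.6%), against 56.0% over all unrepeated bins and 3.46% over the 37846 of them within 2 kb of any TSS. A mean from 35 to 65%, called near 50% here, was found in 41 bins (40.6%) and missed in 60, against 6384 of all 84131 (7.59%) and 2070 of those near any TSS (5.47%). By role, 30 of 59 bins (50.8%) were near 50% at genes with a control region at a TSS, 3 of 21 (14.3%) in the paternal clusters and 8 of 21 (38.1%) in the maternal clusters. These shares describe the loci and were not tested, since bins of a gene are not independent. The 41 bins came from 18 genes, were 10 coding exon, 13 exonic outside the coding part, 13 intronic, 3 in non-coding exons and 2 intergenic, and held a median of 8 CpG, against 3 in all unrepeated bins near 50%. The hexamer TGCCGC, on either strand, was in 8 of the 41 (19.5%), against 4.96% of all unrepeated bins, 8.21% of those near any TSS and 2.40% of all unrepeated bins near 50%. It was also in 7 of the other 60 bins of imprinted genes (11.7%). The hexamer itself holds a CpG. Among bins with at least 5 CpG it was in 5 of 28 near-50% bins of imprinted genes (17.9%), against 9.77% of all unrepeated bins.

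**Figure D1:**
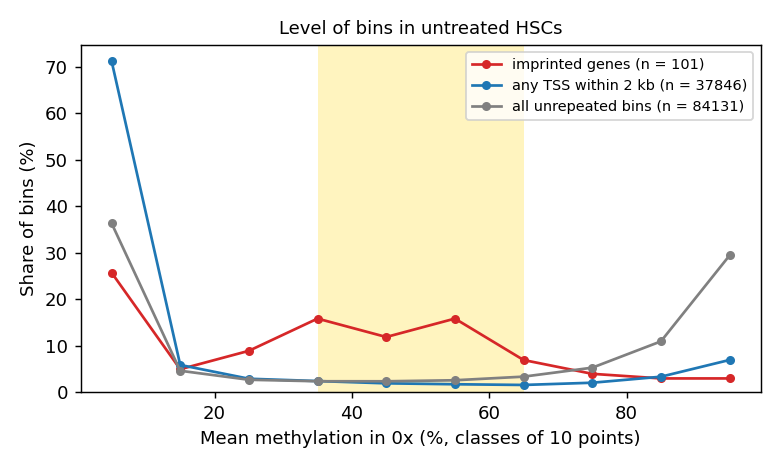
Share of bins (y, %) by mean methylation in 0x (x, classes of 10 percentage points) for unrepeated bins of imprinted genes, of any TSS within 2 kb and of all the data, with 35 to 65% shaded. Imprinted genes have 15.8% of their bins from 50 to 60%, where all unrepeated bins have 2.58%.

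**Figure D2:**
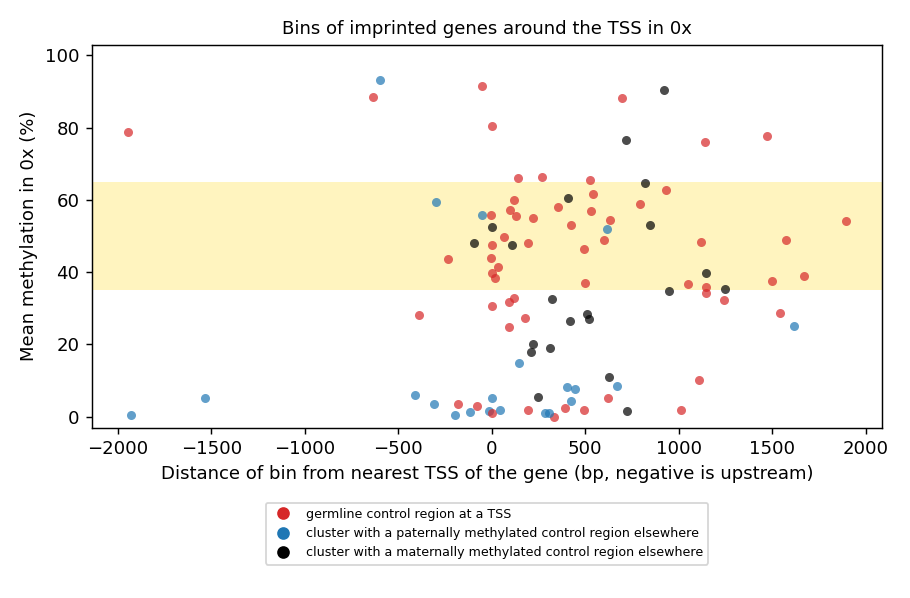
Mean methylation in 0x (y, %) of each unrepeated bin of the imprinted genes against its distance from the nearest TSS of the gene (x, bp), coloured by the role of the gene. Bins near 50% lie on both sides of the TSS and out to 1895 bp, and bins under 20% are mixed with them.

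After treatment a larger share of the near-50% bins of imprinted genes than of other bins was still near 50%, although many single bins left the range. Of the 41 bins, 26 (63.4%) had a mean from 35 to 65% in 2x, 27 (65.9%) in 4x and 29 (70.7%) in 10x, against 49.6, 50.2 and 51.2% of all unrepeated bins near 50% in 0x and 52.7, 51.8 and 56.9% of those within 2 kb of any TSS. In all 3 treated groups the level was held by 15 of 41 (36.6%), against 22.5% of all such bins and 24.2% near a TSS. The bins of all these sets were chosen by their 0x mean alone, but the sets differ in their spread of 0x levels. In 0x 30.7% of the unrepeated bins of imprinted genes were below 20% and 5.94% above 80%. Over all unrepeated bins it was 41.0 and 40.4%, and near any TSS 77.2 and 10.3%. Selection by the 0x mean therefore need not act alike on the sets, and the difference between the shares was not tested. Bins that left the range went both ways, with 9, 8 and 8 above it and 6, 6 and 4 below it in 2x, 4x and 10x. In the order 0x, 2x, 4x and 10x the median over the 41 bins was 49.8, 51.9, 54.1 and 51.7%, while over all 6384 near-50% bins it went from 51.2% to 53.9, 54.5 and 55.5%. Over those within 2 kb of any TSS it was 48.7, 47.0, 47.0 and 48.6%, so a steady median was not particular to imprinted genes.

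A group mean near 50% did not always mean samples near 50%. In 0x 45.1% of the single values at the 41 bins lay from 35 to 65% and 13.4% were at 0 or 100. In 2x 25.6% lay in the range and 40.2% were at 0 or 100, against 28.0 and 36.9% over all near-50% bins. In 4x and 10x the shares in the range were 51.8 and 51.6%, with 12.8 and 8.94% at 0 or 100. The median SD between samples of a group was 28.6, 35.3, 21.7 and 19.3 percentage points in 0x, 2x, 4x and 10x, against 24.6, 28.7, 18.2 and 16.4 over all near-50% bins, so 2x was the widest in both. The part of depth in the 2x values was not tested. Per sample, the median over the 41 bins ran from 42.9% (0x replicate 2) to 57.0% (4x replicate 6), with every group spanning 50%.

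**Figure D3:**
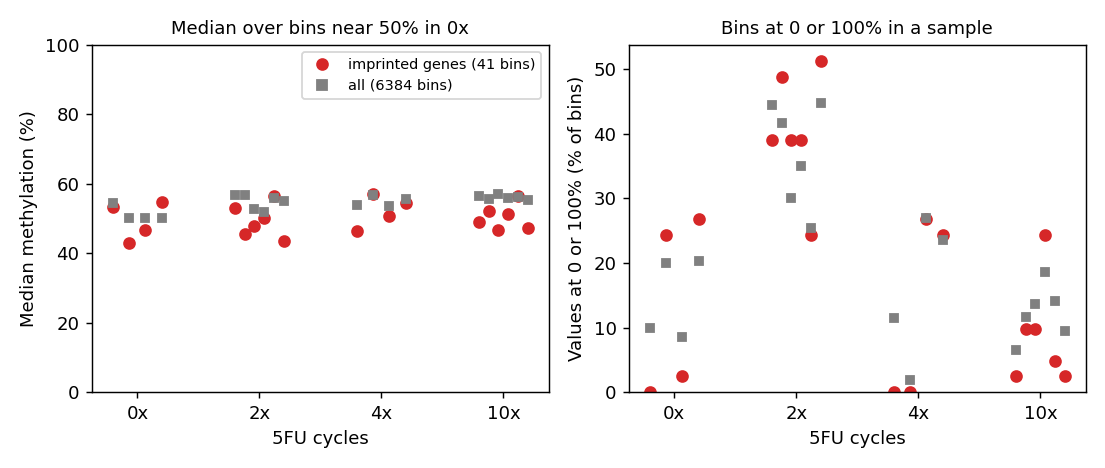
Left, median methylation per sample (y, %) over the 41 bins of imprinted genes and over all 6384 unrepeated bins near 50% in 0x, by number of 5FU cycles (x). Right, the share of those bins at 0 or 100% in each sample (y, %). The medians of imprinted genes stay between 42.9 and 57.0%, and all 6 samples of 2x have 24.4 to 51.2% of their values at 0 or 100%. The highest samples of 0x, 4x and 10x have 26.8, 26.8 and 24.4%.

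**Figure D4:**
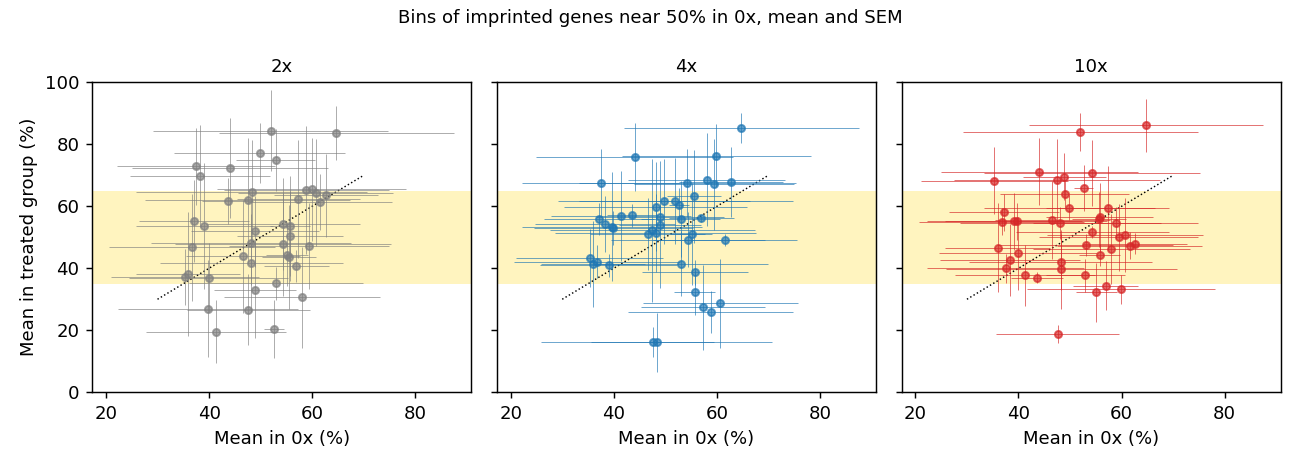
Mean methylation of the 41 bins in 2x, 4x and 10x (y, %) against the mean in 0x (x, %), with bars for the standard error over samples, the range of 35 to 65% shaded and a dotted line of equality. In each panel most points lie in the shaded band, 26, 27 and 29 of 41, and the others lie above and below it.

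Each gene was also averaged over its unrepeated bins. Of the 27 genes 13 had a 0x mean from 35 to 65%, against 9.05% of the 16780 genes measured, and of these 11, 13 and 11 kept it in 2x, 4x and 10x (84.6, 100 and 84.6%), against 1103, 1062 and 1147 of all 1518 genes near 50% in 0x. The 9 that kept it in all groups (69.2%, against 53.6%) were Gnas, Nespas, Zrsr1, Kcnq1ot1, Peg13, H19, Cdkn1c, Magel2 and Igf2r. Snrpn, Nnat, Peg3 and Usp29 left the range in 1 group each. Peg3 and Usp29 share the same 3 bins, and Gnas and Nespas share 3. A gene mean in the range can average bins of unlike levels, as in Gnas and Magel2. With the bins split into 29 stretches at gaps above 5000 bp, 13 stretches had a 0x mean in the range. In all 4 groups 8 stretches did.

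**Figure D5:**
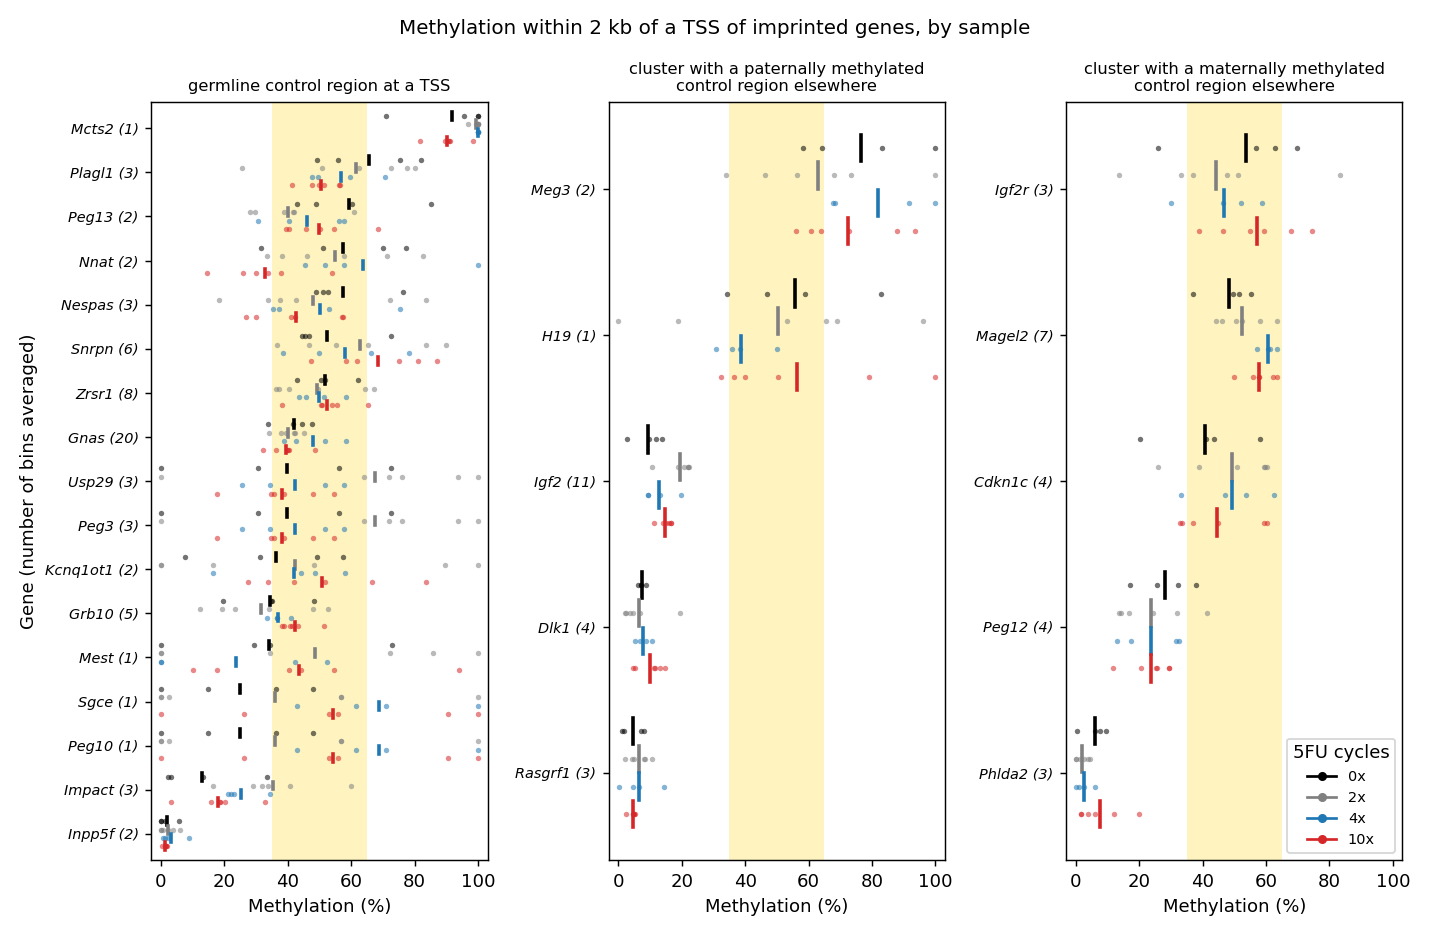
Mean methylation over unrepeated bins (x, %) of each of 27 imprinted genes (y, number of bins in parentheses), with a point per sample, a vertical mark for the group mean and 35 to 65% shaded, in 3 panels by role. Zrsr1, Gnas and Magel2, each a mean over several bins of unlike levels, have narrow groups inside the band or at its edge. Genes with 1 bin, such as Mest and Peg10, spread from 0 to 100%.

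Among genes with a germline control region at a TSS, Zrsr1, which encodes a splicing factor and lies in an intron of Commd1, had group means from 49.2 to 52.4% over 8 bins. It stood at 50.4, 62.1, 43.0 and 51.7% in the 4 samples of 0x, and at 43.7, 51.4, 45.9 and 58.5% in 4x. In 2x the lowest, median and highest samples were 36.3, 45.0 and 67.2%, and in 10x they were 38.3, 52.4 and 65.4%. The groups overlapped throughout, with means of 51.8 ± 7.87, 49.2 ± 13.8, 49.9 ± 6.58 and 52.4 ± 8.78% (SD, n = 4, 6, 4 and 6). Its single bins ranged from 30.8 to 88.1% in 0x, so they did not share 1 level.

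The Gnas locus, which encodes the stimulatory G protein alpha subunit and several alternative products, had the most bins, 20. They fell in 3 stretches. The stretch around the Nespas and XL start sites (8 bins, chr2:174296200-174299499) stood at 59.4, 62.5, 43.2 and 53.0% in 0x and at 45.3, 55.4, 51.0 and 70.8% in 4x. In 2x its lowest, median and highest samples were 41.9, 53.1 and 64.4%, and in 10x they were 36.8, 50.6 and 69.2%, so this stretch had a mean from 51.3 to 55.6% in every group. Its bins were not uniform, running from 28.7 to 88.5% in 0x. Downstream (9 bins, chr2:174327800-174330599), 5 bins read 41.3 to 62.7% in 0x, while the 4 from 174329600 on, at the start of the main transcript, read 1.74 to 2.95% in 0x and at most 7.50% in any group. Partly methylated and nearly unmethylated bins thus lay side by side here in every group. The upstream stretch (3 bins, chr2:174284700-174286999) was less precise, with means of 41.2 ± 14.3, 53.2 ± 31.6, 68.6 ± 25.3 and 48.3 ± 19.7% in 0x, 2x, 4x and 10x (SD).

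Some Gnas bins, taken from those whose means lay from 35 to 65% in all 4 groups, showed the level in most samples. The bin at 174296600, at -236 bp from a Gnas start site, lay from 35 to 65% in 15 of 20 samples, with 38.6, 39.6, 58.5 and 37.7% in 0x and 58.9, 51.6, 66.7 and 51.1% in 4x. The bin whose sequence is shown above lay in the range in 15 of 20 samples too. It read 63.4, 100, 36.0 and 46.7% in 0x and 46.8, 53.6, 45.5 and 50.9% in 4x. The 4 values of 4x lay within 10 points of each other, and those of 0x did not.

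Grb10 encodes an adaptor that restrains growth factor signalling and has its control region at an internal promoter. There (3 bins, chr11:12026200-12026499) the 0x samples read 75.4, 57.9, 55.3 and 32.5%, and the means were 55.3, 50.1, 58.4 and 66.0% in 0x, 2x, 4x and 10x. At its main promoter (2 bins, chr11:12036700-12037499) the means were 3.19, 3.93, 4.70 and 6.79%. The 2 promoters of the gene did not overlap in any sample, so the average over the 5 bins (34.4, 31.6, 36.9 and 42.3%) describes neither.

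Snrpn, which encodes a spliceosome protein and starts in the control region of the Prader-Willi and Angelman cluster, had all 5 bins of that region near 50% in 0x. The region (chr7:60004500-60005299) read 69.9, 37.4, 43.1 and 37.4% in 0x. In 10x the lowest, median and highest samples were 47.6, 63.3 and 86.8%, and both groups overlapped. The group means were 47.0, 57.0, 53.1 and 65.4%. With a bin at an upstream start site included, the gene's difference of 10x from 0x was 16.2 points (SE 8.68, adjusted p = 0.832 in limma).

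Nespas, an antisense RNA of the Gnas locus, read 52.8, 76.3, 51.2 and 48.8% over its 3 bins in 0x, and had group means of 57.3, 48.0, 50.3 and 42.5% with overlap throughout.

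Peg13, a non-coding RNA within Trappc9, stood at 43.0, 85.3, 60.1 and 48.9% in 0x and at 30.6, 56.2, 57.7 and 40.3% in 4x. The other groups had medians of 40.2% (2x, 28.0 to 60.9%) and 47.9% (10x, 39.6 to 68.6%). All treated means lay below that of 0x, with differences of -19.2, -13.1 and -9.44 points, and none passed the test. The 10x difference turned to 3.08 points with repeated values as missing and 0.973 over all deposited bins that vary. Kcnq1ot1, whose transcription silences the neighbouring Kcnq1 cluster, had 2 bins and wide spreads. It read 7.47, 31.2, 49.1 and 57.6% in 0x and 44.3, 57.9, 16.4 and 48.6% in 4x. In 2x its samples ran from 0 to 100%. The means (36.3, 42.4, 41.8 and 50.9%) therefore rest on samples far from 50%.

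Nnat, a proteolipid gene within Blcap, read 51.1, 31.6, 69.9 and 77.4% in 0x and had a lowest, median and highest sample of 14.6, 32 and 53.9% in 10x. Its 10x mean of 32.8 ± 13.1% (SD, n = 6) was below 57.5 ± 20.5% in 0x (n = 4), a difference of -24.8 points (SE 9.73, adjusted p = 0.712 in limma). The groups overlapped. The direction rests on these 2 unrepeated bins. With repeated values taken as missing, which brings in more of the 16 Nnat bins, the 10x mean was higher than that of 0x (28.5 points, SE 5.12, adjusted p = 0.0259 in limma), as it was over all deposited bins that vary (25.2 points). A bin at the TSS (157560000), for one, had means of 10.6% in 0x and 100% in 10x, where every sample held the same value. No direction is therefore given for Nnat as a gene. Plagl1, a zinc finger transcription factor gene, read 49.3, 55.7, 75.4 and 81.9% in 0x and 41.4 to 56.6% in 10x, with a difference of -15.1 points (SE 6.32, adjusted p = 0.760 in limma). Peg3 and Usp29, which share a bidirectional promoter, read 30.6, 0, 56.3 and 72.5% in 0x. In 2x the samples ran from 0 to 100% with a median of 73.9%, and in 10x from 17.6 to 54.6%. The group means were 39.9, 67.6, 42.3 and 38.2%.

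Other genes with a germline control region were not near 50% in 0x. Peg10, a retrotransposon-derived gene, and its neighbour Sgce share 1 bin, which read 48.0, 36.3, 0 and 15% in 0x and 70.9, 42.9, 61.5 and 100% in 4x. The 0x and 4x values overlapped (difference 44.0 points, SE 14.5, adjusted p = 0.975 in limma). Mest, which encodes a hydrolase-like protein, had 1 bin at 34.4, 29.3, 0 and 72.9% in 0x. Impact, a regulator of protein synthesis under stress, had a mean of 13.1% in 0x and 35.3, 25.1 and 18.1% in 2x, 4x and 10x. This average describes neither of its 2 sites. The 2 bins from 12955700 on had means of 6.01, 14.1, 4.05 and 9.29% in 0x, 2x, 4x and 10x. The 1 bin at 12972100 had means of 27.2, 77.8, 67.2 and 35.8%, with 0x samples at 0, 0, 8.82 and 100%. Mcts2, a retrogene in H13, had the highest 0x mean of these genes, 91.7%, and treated means of 99.3, 100 and 90.3%. Inpp5f, a phosphoinositide phosphatase gene, was the lowest, with 1.79 ± 2.73% in 0x, and both its unrepeated bins lay within 335 bp of its upstream start sites, and none at the downstream one (128688870).

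In the paternal clusters H19, the non-coding RNA next to Igf2, was the only gene with a 0x mean near 50%. Its bin at the promoter read 46.9, 58.8, 34.4 and 82.8% in 0x and 50, 35.8, 30.7 and 38.5% in 4x. The lowest, median and highest samples were 0, 59.4 and 96.2% in 2x and 32.5, 45.2 and 100% in 10x. The control region itself lies upstream of the 2 kb window. The 1 unrepeated bin there, at -2954 bp, had means of 55.7, 63.6, 64.0 and 73.5% in 0x, 2x, 4x and 10x, with SDs from 7.63 to 38.2.

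Igf2, which encodes insulin-like growth factor 2, was under 10% in 0x at 9 of its 11 bins, with gene means of 9.51 ± 4.73, 19.4 ± 4.48, 12.9 ± 4.92 and 14.9 ± 2.08% (SD, n = 4, 6, 4 and 6). The difference of 2x from 0x was 9.89 points (SE 2.86, adjusted p = 1.0 in limma). It rests in large part on 1 of the 11 bins, described next. A single intronic bin (chr7:142665100-142665199) read 63.3, 0, 26.2 and 10.8% in 0x and 85.7 to 100% in the 6 samples of 2x. It was the member bin with the smallest adjusted p (68.6 points higher in 2x, SE 10.7, adjusted p = 0.266 in limma), with no overlap between the groups. Without 0x replicate 1, its adjusted p was 0.0202, and the calls over all bins rose from 3 to 24 of 84131. In 4x and 10x its means were 39.4 and 49.1%, and both overlapped with 0x. Meg3, a non-coding RNA, was the highest of these clusters at 76.4% in 0x and 63.0 to 81.8% after treatment. Its bin at -297 bp from a TSS had means of 59.4% in 0x and 47.3, 67.0 and 50% after treatment. Dlk1, a membrane ligand of the Notch family, had a mean of 7.41% in 0x. Rasgrf1, a Ras exchange factor gene, was the lowest at 4.62% in 0x.

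In the maternal clusters, Igf2r, the receptor that clears IGF2, had all 3 bins near 50% in 0x. Its mean read 62.7, 56.9, 25.9 and 69.7% in 0x and 58.7, 52.0, 30.2 and 46.3% in 4x. The lowest, median and highest samples were 13.6, 42.4 and 83.3% in 2x and 39.0, 57.2 and 74.6% in 10x, so the groups overlapped. Cdkn1c, which encodes the cell cycle inhibitor p57 that keeps HSCs quiescent, read 58.0, 41.1, 43.5 and 20.3% in 0x and 33.1, 53.8, 62.6 and 47.1% in 4x. Its group means were 40.7 ± 15.5, 49.2 ± 14.1, 49.1 ± 12.5 and 44.6 ± 12.5% (SD). Magel2, which encodes a ubiquitin ligase regulator, had 7 bins, of which 1 was near 50% and the others ran from 20.3 to 90.3% in 0x, so its mean averages low and high bins. The mean read 55.2, 49.7, 36.9 and 51.4% in 0x. In 4x it read 57.3, 60.6, 63.5 and 61.4%, all above 0x, a difference of 12.4 points (SE 3.85, adjusted p = 0.975 in limma). Of the 27 genes it alone had a group without overlap with 0x, and only in 4x, where 2.16% of all genes had none. Peg12, a regulator of Wnt signalling, was lower at 28.3 ± 8.89% in 0x and 23.7 or 23.8% after treatment. Phlda2, a growth-restraining placental gene, was the lowest at 6.02% in 0x.

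No imprinted gene or bin passed a test of treated against untreated samples. Each treated group was compared with 0x by limma, with a call at a Benjamini-Hochberg adjusted p under 0.05 over all features and, for bins, a difference of at least 10 points. In 2x 0 bins of imprinted genes were called, with a background of 3 of 84131 (0.00357%). In 4x and 10x it was also 0, against 0.00713% and 0.0131%. At an unadjusted p under 0.05 there were 7, 6 and 14 bins in 2x, 4x and 10x, against 3.79, 3.69 and 6.23% of all bins. Bins higher than 0x made up 50.5, 68.3 and 57.4% in 2x, 4x and 10x, against 51.9, 53.6 and 56% of all bins. Groups did not overlap in 1, 2 and 3 bins (0.990, 1.98 and 2.97%), against 0.676, 1.95 and 1.32% of all bins. At the level of genes 0 of 27 were called in 2x (background 0.0%), 0 in 4x (0.0%), 0 in 10x (0.00596%) and 0 for a slope over the number of cycles (0.0%). At an unadjusted p under 0.05 there were 2, 3, 4 and 2 of the 27. Each is a larger share than the 3.62, 3.71, 6.31 and 3.77% of all genes, which was not tested, and some genes share bins. These 4 comparisons share the 0x samples, and a p above the limit does not show that levels were equal. The median SE of a difference over these imprinted bins and genes was 14.9, 12 and 10.4 points per bin and 8.87, 9.03 and 7.72 points per gene in 2x, 4x and 10x, so the tests at single bins were imprecise.

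The 364 bins with repeated, constant or flat values are given apart. Near 50% in 0x were 83 of them (22.8%), against 5.07% of all such bins, and 45, 40 and 41 of these (54.2, 48.2 and 49.4%) kept a mean from 35 to 65% in 2x, 4x and 10x, against 39.9, 37.9 and 37.1%. The filling writes 1 value into several samples, so these shares are not independent of it. The single bin of Rtl1, a retrotransposon-derived gene, stood at 50% in all 20 samples, and a Gnas bin stood at 51.9% in all. Airn, the RNA that silences Igf2r, had 8 such bins with 0x means from 33.4 to 100%. Ndn, which encodes necdin, had 3, with 0x means from 11.5 to 52.2%. Ube3a, a ubiquitin ligase gene, had 11 and Kcnq1, a potassium channel gene, had 10, with 0x means from 0 to 100% in both. Filled values make samples of a group alike by construction, so calls made on these bins are not read as change between samples.

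Among 43 other imprinted genes 29 had unrepeated bins, with a median 0x level of 7.46%, 4 of them near 50% and 0 called in any comparison. Of 11 genes for imprint maintenance (among them Dnmt1 and Zfp57) 8 were measured, with a median of 4.23% in 0x and 0 called. Cell identity was checked only at promoters, whose methylation need not follow expression. Among HSC markers, 5 of 6 genes measured were under 20% in 0x, with Hlf at 68.4%. The lymphoid marker Cd5 stood at 43.0%, the myeloid marker Mpo at 48.3%, the erythroid marker Klf1 at 3.65% and the epithelial marker Krt14 at 94.8%. The SDs in 0x were 26.2, 43.2 and 23.2 points for Hlf, Cd5 and Mpo. These 0x levels do not show whether the treated groups match 0x.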

How the data were processed

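Per the labels and the study's methods, RRBS reads were processed by the authors with Trim Galore 0.4.3 for adapters and Bismark 0.23.1 for alignment (mm10). They made the deposited percent methylation values with methylKit 1.22.0, in bins of 100 bp, with missing bins filled within a group. The deposited files hold 1 percent per bin and sample and no coverage, so depth, and filling of a single sample, cannot be seen.

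Samples were grouped by the labelled number of cycles. Bins were assigned to any RefSeq TSS (GRCm38.p6) within 2 kb. Nespas was found as Gnasas1. Percent values were compared with limma 3.58.1 (R 4.3.3), per bin and as the mean over bins per gene, with Benjamini-Hochberg adjustment over all features. The fits were tested on simulated data, where hardly any of the differences added at single bins were called. A lack of called bins therefore says little about change. At genes more of the added differences were called, though many were missed, so a lack of called genes is limited too. Members, lists and limits were chosen with earlier results of these data known. Genes described in detail are those with an unrepeated bin near 50% in 0x and the highest and lowest of each class. Alternatives varied the scale, variance model, label series, window, limits and bins. 1 marker gene is not reported here.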

Additional observations from a re-analysis of the deposited data

Results flagged for a closer look

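Of 108 sets of sample values (a gene in a group) 11 held a sample far from the rest by Dixon's test. Chance gives about 1 in 20 only for independent sets of roughly normal values. Some genes share bins and Mcts2 lies near 100%, so no excess over chance is read from this count. Peg3 and Usp29, which share their bins, were at 0.0% in 2x replicate 4, with the other samples from 64.0 to 100%. In the same sample Igf2 was at 10.7%, with the others from 18.7 to 22.4%. Snrpn was at 72.5% in 0x replicate 1, with the others from 44.4 to 46.8%, and Nespas at 76.3% in 0x replicate 2, with the others from 48.8 to 52.8%. Mcts2 was at 71.0% in 0x replicate 13 (others 95.7 to 100%), at 96.8% in 2x replicate 17 (others 99.2 to 100%) and at 99.8% in 4x replicate 6 (others at 100%). Impact was at 34.4% in 4x replicate 19, with the others from 21.1 to 23.0%. Dlk1 was at 19.6% in 2x replicate 3 (others 2.14 to 6.94%), and Rasgrf1 at 2.56% in 10x replicate 34 (others 4.79 to 5.24%). No cause was tested.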

How the results depend on the processing

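No paired analysis was possible because the groups share no replicate numbers. Calls among imprinted genes stayed at 0 with another scale, variance model, label series as a term, all groups in 1 fit and other windows. With all deposited bins that vary, 67, 34 and 44 bins and 7, 2 and 5 genes were called in 2x, 4x and 10x, and 5 genes for the slope, where 98497, 70172 and 75863 of all 701483 bins and 25.8, 15.9, 19.2 and 11.8% of all genes were called. With repeated values as missing, 5 bins in 2x, 6 bins in 10x, 1 gene in 2x (Airn, lower), 1 in 10x and 1 for the slope (Nnat, higher in both) were called, against 10169 and 5082 of 508847 bins and 1246, 524 and 385 of 26374 genes. The 5 bins were of Gnas, Peg12, Igf2, Cdkn1c and Meg3, and 3 of the 6 were of Nnat. The 10x difference of Nnat turned from -24.8 to 28.5 points there and to 25.2 with all deposited bins, and that of Peg13 from -9.44 to 3.08 and 0.973. With groups at 0 or 100 throughout also kept (an alternative chosen after seeing the data), 2 bins (Peg12 and Igf2) and 1 gene (Kcnq1) were called in 2x, against 4660 of 283752 bins and 775 of 23337 genes. Leaving out 1 sample gave 0 to 1 called bins in 2x, the 1 being an Igf2 bin without 0x replicate 1. Leaving out 1 sample also gave 34 to 41 near-50% bins, with held shares between 53.7 and 70.6% for 2x, between 53.7 and 73.5% for 4x, and between 65.9 and 78.0% for 10x. With limits of 40 to 60%, 42.9, 46.4 and 46.4% of near-50% bins were held in 2x, 4x and 10x, and with 30 to 70% 76.5, 78.4 and 84.3%. With all deposited bins 57.3, 54.0 and 56.5% were held, and with repeated values as missing 49.5, 54.7 and 58.9%. Near 50% in 0x were 124 of all 465 deposited bins and 95 bins with repeated values as missing. The cause of these shifts was not tested. The near-50% counts and held shares under these alternatives cover bins of imprinted genes only. Whether their contrast with all bins holds under them is not shown. Depth above the minimum stated in the study's methods is unknown and limits every value at a single bin.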
